A study of Mus musculus with 55 samples.

Results

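Histone-modifying enzyme genes were followed from mitosis into early G1 in mouse E14Tg2a embryonic stem (ES) cells by RNA-seq of their pre-mRNA. The members were the genes whose symbol starts with Kdm, Kmt, Kat, Hdac or Setd and a number, together with Setdb1, Setdb2, Ehmt1 and Ehmt2. A single gene of the name pattern is left out. They were 46 of the 9911 genes listed for the CCNA-GFP line and 48 of the 10237 listed for the CTCF-AID line, where Hdac8 and Hdac11 were listed as well. The rule reads symbols alone, and its genes are those that passed the level filter of the deposited tables. That filter reads asynchronous cells and stages after release. By stage means Hdac10 in CCNA-GFP passed only after release, and Hdac8 in CTCF-AID only in asynchronous cells. The rise of Hdac10 and the asynchronous maximum of Hdac8 are thus not independent of the filter.

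CCNA-GFP cells carry a cyclin A reporter of the cell cycle, and 19 libraries of this line were used. In the CTCF-AID line the architectural protein CTCF carries a degron, and auxin (IAA) at 0.5 mM triggers degradation of the protein. This line gave 18 libraries without IAA and 18 with it. Cells of both lines were grown in serum and LIF. For all stages but the asynchronous one they were held for 4 h in 10 µM of the CDK1 inhibitor RO-3306 and for 4 h in 50 ng/ml nocodazole, and collected by shake-off. In the treated CTCF-AID arm IAA was given for the last 2 h of the arrest and kept on during release, and asynchronous cells of that arm received it in parallel, without either drug of the arrest. Asynchronous and mitotic cells were measured in 3 libraries for each line and arm. In both lines 20, 40, 60, 90 and 120 min after release were measured in 2 libraries each. The 30 min stage was measured in CCNA-GFP only (2 libraries), and 50 min in 2 libraries of each CTCF-AID arm and in 1 of CCNA-GFP, for which no test was made. Each engineered line is a single line, so the lines differ in more than their tag, and the methods of the study call the replicates independent without naming separate cultures, so that p-values measure the spread between these libraries.

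Histone lysine methyltransferases (Kmt, Setd, Ehmt) add methyl groups that mark promoters, enhancers, gene bodies or heterochromatin, and the lysine demethylases (Kdm) remove them. Lysine acetyltransferases (Kat) add acetyl groups at active genes, and histone deacetylases (Hdac) take them off, mostly as catalytic subunits of corepressor complexes. Many of these enzymes come as paralogs, such as Ehmt1 with Ehmt2 or Hdac4 with Hdac5, that share a substrate or a complex. In ES cells these opposing activities are known for holding pluripotency genes active and lineage genes in reserve.

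Levels are TPM of the unspliced isoform, the abundance of a transcript relative to all others after division by transcript length. Summed TPM of all listed genes rose from 13746.9 in the lowest to 42575.8 in the highest CCNA-GFP library, and ran from 17701.5 to 43370.2 in CTCF-AID. The mitotic and 20 min libraries were lowest in CCNA-GFP, while in CTCF-AID some asynchronous libraries were as low. Of 8 ES cell markers 7 were listed in each line, with a summed level of 24.7 to 103.6 TPM in CCNA-GFP and 37.4 to 126.4 TPM in CTCF-AID. None of 6 endoderm markers was listed. Of 6 mesoderm and neural markers 4 were listed, with a summed level of at most 7.66 TPM in CCNA-GFP and 15.0 TPM in CTCF-AID, and of 6 fibroblast markers 2 were listed in CTCF-AID only, at 0.146 to 3.42 TPM. In these bulk samples a change in the share of cells that had left mitosis and a change in pre-mRNA per cell cannot be told apart.

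Most members were expressed at a few TPM. In asynchronous CCNA-GFP cells their mean levels ran from 0.376 TPM for Hdac10 to 12.1 TPM for Kat6b, with a median of 2.66 TPM. Kat6b, an acetyltransferase of histone H3, was followed by Setd5, a SET domain protein linked to corepressors, at 8.06 TPM. Next came the H3K9 demethylase gene Kdm3a at 5.47 TPM, the acetyltransferase gene Kat7 at 5.45 TPM and the H3K9 and H3K36 demethylase gene Kdm4c at 5.31 TPM. The Kat6b libraries read 9.78, 7.35 and 19.04 TPM and those of Kat7 4.18, 5.05 and 7.12 TPM, so the neighbours in this order below Kat6b overlapped in their libraries. In asynchronous CTCF-AID cells without IAA the 5 highest were Kat6b (9.32 TPM), Kat7 (7.73 TPM), Setd5 (7.47 TPM), Setd6 (5.71 TPM) and Kdm1a (4.76 TPM).

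The first question was when these genes become transcribed again after mitosis. Each stage was compared with mitotic cells by limma on log2(TPM + 1), with the replicate as a block and with p-values adjusted over all listed genes (Benjamini-Hochberg, threshold 0.05). At 20 min no member passed in either direction in any of the 3 arms, where 0% of all genes did. At an unadjusted p under 0.05 there were also 0 members at 20 min, with no share of all genes at that threshold beside it. At 40 min 20 of 46 members were higher in CCNA-GFP (49.3% of all genes), 27 of 48 in CTCF-AID without IAA (63.3%) and 20 of 48 with IAA (58.7%). At 60 min 43 of 46 were higher in CCNA-GFP (88.3% of all genes), 41 of 48 without IAA (84.8%) and 38 of 48 with IAA (82.2%). The members rose with the bulk of the genome: at 60 min in CCNA-GFP their median log2 fold change was 0.90 beside 0.79 for all genes, and without IAA 0.69 beside 0.63. In CTCF-AID they were behind all genes at 40 min, with medians of 0.22 beside 0.34 without IAA and 0.16 beside 0.30 with it, and again at 90 min (0.29 beside 0.40 without and 0.33 beside 0.41 with IAA) and 120 min (0.21 beside 0.34 and 0.24 beside 0.35). At 30 min, measured in CCNA-GFP only, 0 members passed (0.303% of all genes). At an unadjusted p under 0.05 there were 3, a count with no share of all genes beside it. Without replicate 1 the 40 min count in CCNA-GFP was 10. In all 3 arms the 40 min counts were also lower with equal library totals and without the replicate block, as listed in the last section. With every library scaled to the same total the median of all genes at 60 min moved to 0.02 in CCNA-GFP and to 0.06 in CTCF-AID without IAA. The medians of the members moved to 0.04 and -0.09. Under that scaling 15 and 17 members were called higher, and 24 of 46 and 21 of 48 lay above mitosis. No share of all genes called under it is given here, so such counts show only how the members' calls depend on the scaling. The number of members of each role above mitosis in CCNA-GFP is therefore also given under that scaling, with equal totals.

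At 50 min 34 of 48 members were higher and 4 lower without IAA (79.1% and 4.56% of all genes), and 35 higher and 6 lower with it (78.2% and 5.37%). At 90 min 44 of 46 were higher in CCNA-GFP (89.1%), beside 30 higher and 1 lower of 48 without IAA (74.8% and 3.37%) and 31 higher and 4 lower with it (73.8% and 4.41%). At 120 min 45 of 46 were higher in CCNA-GFP (90.2%). Without IAA 24 of 48 were higher (69.6%) and 1 lower (322 of 10237 genes), and with IAA 24 were higher and 4 lower (68.2% and 4.42%). The share of members called higher than in mitosis thus stayed high in CCNA-GFP, while in both CTCF-AID arms it shrank after 60 min and ended below that of all genes. By the sign of the change alone the gap at 120 min was smaller. Above mitosis were 39 of 48 members without IAA (89.7% of all genes) and 38 of 48 with it (87.5%). The contrast between the lines turned on the scaling. With equal totals 8 of 46 members were called higher at 120 min in CCNA-GFP and 11 of 48 in each CTCF-AID arm. Those counts have no share of all genes beside them, so the comparison with all genes holds for the deposited TPM only. Without replicate 2 the 120 min counts were 14 without and 13 with IAA, and they reached 30 and 34 when another replicate was left out. The 120 min counts of members thus rested on the replicates kept. No share of all genes is given with a replicate left out, so these counts do not place the members against all genes.

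**Figure D1:**
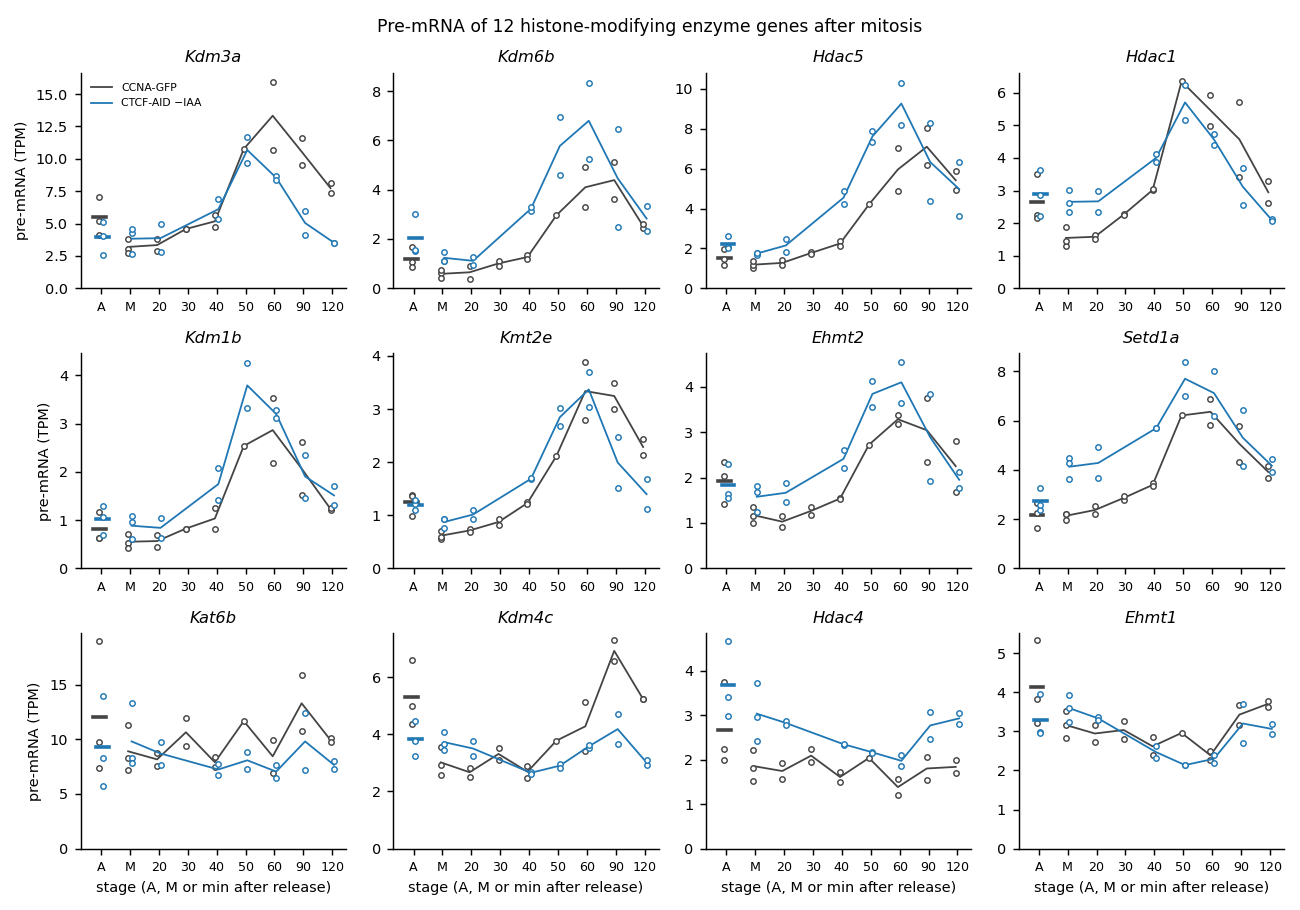
Pre-mRNA level in TPM (y axis, linear) of 12 histone-modifying enzyme genes by stage (x axis: A, asynchronous, M, mitotic, then min after release), with circles for libraries, lines and bars for means, grey for CCNA-GFP and blue for CTCF-AID without IAA. Kdm3a, Kdm6b, Hdac5 and Hdac1 climb to a maximum between 50 and 90 min, whereas Hdac4 and Ehmt1 in the bottom row are lower at 60 min than in mitosis and Kat6b is highest at 90 min in CCNA-GFP among the stages after release.

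Among the H3K4 methyltransferase genes, which act at promoters and enhancers, 8 of 8 were higher at 60 min in CCNA-GFP and 3 of 8 remained above mitosis when libraries were scaled to the same total. Kmt2e, a member of the family with little catalytic activity of its own, read 0.557, 0.698 and 0.590 TPM in mitosis and 3.88 and 2.79 TPM at 60 min. Its log2 fold change was 1.43 ± 0.12 (SE, limma, adjusted p = 8.27e-10), and the libraries of the groups did not overlap. On log2(TPM + 1), which understates changes of low genes, Setd7 had the smallest rise of the list (0.47 ± 0.10, limma adjusted p = 0.000259). It went from 0.209, 0.531 and 0.197 TPM to 0.837 and 0.919 TPM. Setd7 differed as much between replicates as between stages, replicate 2 being highest in mitosis and in asynchronous cells, and it stood at -0.01 under the same-total scaling. Setd1a, which deposits promoter H3K4 trimethylation, was at 2.23, 1.96 and 2.22 TPM in mitosis, 3.45 and 3.33 TPM at 40 min, and 6.89 and 5.83 TPM at 60 min. In CTCF-AID without IAA 7 of 8 were higher at 60 min, Setd1b (0.22 ± 0.17, limma adjusted p = 0.214) being the one that did not pass.

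Of the 4 H3K9 methyltransferase genes, 3 rose at 60 min in CCNA-GFP, and 2 of 4 lay above mitosis under the same-total scaling. Ehmt2 (G9a), which writes H3K9 dimethylation, went from 1.01, 1.16 and 1.35 TPM in mitosis to 3.39 and 3.18 TPM (1.06 ± 0.12, limma adjusted p = 8.84e-08). Its obligate partner gene Ehmt1 (GLP) went the other way on average, from 2.82, 3.15 and 3.51 TPM to 2.51 and 2.26 TPM, which was not called in this line (-0.21 ± 0.12, limma adjusted p = 0.0984). Every 60 min library of Ehmt1 lay below every mitotic one. Relative to the median change of all genes Ehmt1 stood at -1.005 and Ehmt2 at 0.27. The H4K20 methyltransferase gene Kmt5a rose from 1.25, 1.63 and 1.55 TPM to 4.91 and 4.14 TPM (1.22 ± 0.12, limma adjusted p = 1.16e-08, and 0.25 with equal totals). Setd2, which writes H3K36 trimethylation in gene bodies, rose from 2.19, 2.26 and 2.67 TPM to 5.48 and 3.82 TPM (0.82 ± 0.13, limma adjusted p = 6.29e-06), though it stood at -0.23 with equal totals.

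The other SET domain genes all rose at 60 min in CCNA-GFP (4 of 4), while 1 of 4 lay above mitosis with equal totals. Setd3, which methylates actin, rose most, from 1.81, 1.79 and 2.28 TPM to 6.32 and 4.07 TPM (1.14 ± 0.13, limma adjusted p = 1.02e-07). Setd5 rose least, from 5.43, 6.31 and 6.61 TPM to 11.4 and 7.42 TPM (0.60 ± 0.15, limma adjusted p = 0.000994), and went on to 13.2 and 14.3 TPM at 90 min. Without replicate 1 the 60 min change of Setd5 was 0.27 and was not called.

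On log2(TPM + 1) the demethylase genes Kdm3a and Kdm6b led in CCNA-GFP, while the median of the 8 H3K9 and H3K36 demethylase genes was 0.87, near that of all members. As a plain ratio of 60 min to mitosis Kdm6b was highest of the members in all 3 arms, at 7.99, 6.09 and 5.59 in CCNA-GFP, without and with IAA. Kdm3a, which removes H3K9 mono- and dimethylation, read 3.07, 2.69 and 3.82 TPM in mitosis, 5.65 and 4.70 TPM at 40 min, 10.8 TPM in the 50 min library, and 15.9 and 10.7 TPM at 60 min. Its 60 min level was 4.63 times the mitotic one in the same replicates, with a log2 fold change of 1.87 ± 0.13 (limma, adjusted p = 2.00e-10), the highest of the 46 members in this line on that scale and 1.08 above the median of all genes. In the same list of 8 H3K9 and H3K36 demethylase genes all were higher at 60 min in CCNA-GFP, and 5 of 8 were above mitosis with equal totals. On log2(TPM + 1), though not necessarily as a plain ratio, the smallest change was that of Kdm8 (0.42 ± 0.09, limma adjusted p = 0.000157). Kdm8 went from 0.488, 0.631 and 0.562 TPM to 1.06 and 1.02 TPM.

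Both H3K27 demethylase genes rose, and both stayed above mitosis under every scaling tried at 60 min. Kdm6b (JMJD3) rose 7.99 times, from 0.627, 0.399 and 0.731 TPM to 4.91 and 3.29 TPM, a log2 fold change of 1.77 ± 0.13 (limma, adjusted p = 2.74e-10). The X-linked Kdm6a (UTX) rose 2.91 times, from 1.88, 2.23 and 2.45 TPM to 7.15 and 4.81 TPM (1.19 ± 0.13, limma adjusted p = 5.72e-08). For both genes the groups were apart in every library. The 2 H3K4 demethylase genes moved alike, Kdm5a by 0.95 ± 0.12 and the X-linked Kdm5c by 0.92 ± 0.13 (limma adjusted p = 5.17e-07 and 1.91e-06), and with equal totals both lay slightly below mitosis, at -0.11 and -0.12.

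The flavin-dependent amine oxidase demethylases parted. Kdm1b (LSD2) rose from 0.523, 0.432 and 0.703 TPM to 3.54 and 2.19 TPM at 60 min, 6.004 times its mitotic level and 1.41 ± 0.12 on the log2 scale (limma, adjusted p = 1.64e-09), and stayed above mitosis with equal totals, at 0.68. Kdm1a (LSD1), the catalytic subunit of the CoREST corepressor, was the more abundant of the pair in mitosis, at 3.80, 3.65 and 4.55 TPM, and reached 7.57 and 4.74 TPM at 60 min (0.59 ± 0.14, limma adjusted p = 0.000485). Kdm1a replicate 2 was little above its mitotic level, and without replicate 1 its change was 0.35 and was not called. With equal totals Kdm1a stood at -0.55.

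Among 7 acetyltransferase genes 6 were higher at 60 min in CCNA-GFP, and 3 of 7 were above mitosis with equal totals. Kat7 (HBO1), which acetylates H3K14, rose most, from 3.03, 2.29 and 3.43 TPM to 8.11 and 6.33 TPM (1.19 ± 0.14, limma adjusted p = 7.58e-08). Kat2b (PCAF) rose little, from 1.53, 0.963 and 2.00 TPM to 2.47 and 1.34 TPM (0.38 ± 0.10, limma adjusted p = 0.00206). Kat6b did not pass, at 8.26, 7.17 and 11.3 TPM in mitosis and 9.97 and 6.93 TPM at 60 min (0.16 ± 0.15, limma adjusted p = 0.307). The most abundant member in mitosis was thus one of the few whose 60 min libraries overlapped the mitotic ones.

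The class I deacetylases are the catalytic subunits of the Sin3, NuRD, CoREST and NCoR complexes. Their genes Hdac1, Hdac2 and Hdac3 all rose by 40 min in CCNA-GFP (3 of 3) and stayed above mitosis at 60 min under every scaling tried in that line. In both CTCF-AID arms Hdac1 was not above mitosis at 60 min with equal totals. Hdac1 went from 1.29, 1.46 and 1.88 TPM in mitosis through 3.00 and 3.03 TPM at 40 min to 6.34 TPM in the single 50 min library and 5.94 and 4.99 TPM at 60 min (1.46 ± 0.13, limma adjusted p = 3.56e-09). Hdac2 rose by 1.35 ± 0.11 and Hdac3, the NCoR-bound enzyme, by 1.29 ± 0.12 (limma adjusted p = 1.10e-09 and 3.39e-09). In CTCF-AID without IAA the fourth class I gene, Hdac8, which acts on cohesin, read 0.348, 0.586 and 0.569 TPM in mitosis and 0.315 and 0.463 TPM at 60 min and was not called (-0.08 ± 0.05, limma adjusted p = 0.156).

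Class II and IV deacetylases held the widest contrast of any list. Hdac5 rose 5.49 times in CCNA-GFP, from 1.01, 1.16 and 1.38 TPM to 7.04 and 4.88 TPM (1.73 ± 0.14, limma adjusted p = 6.17e-10). With equal totals 3 of 4 genes of this list were above mitosis in CCNA-GFP, and Hdac5 stood at 0.78 there and at 1.18 in CTCF-AID without IAA. Hdac4, a class IIa enzyme of the same kind, went from 1.81, 1.53 and 2.22 TPM to 1.56 and 1.20 TPM (-0.14 ± 0.11, limma adjusted p = 0.248). Without IAA, in CTCF-AID, Hdac5 rose by 1.95 ± 0.19, whereas Hdac4 fell by 0.34 ± 0.09, from 2.41, 2.95 and 3.73 TPM to 2.09 and 1.85 TPM (limma adjusted p = 1.66e-09 and 0.00105). Without replicate 2 the change of Hdac4 was -0.26 (limma) and was not called. The class IV gene Hdac11, at 0.413, 0.439 and 0.544 TPM in mitosis and 0.652 and 0.536 TPM at 60 min, was barely past the threshold (0.13 ± 0.06, limma adjusted p = 0.0469).

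**Figure D2:**
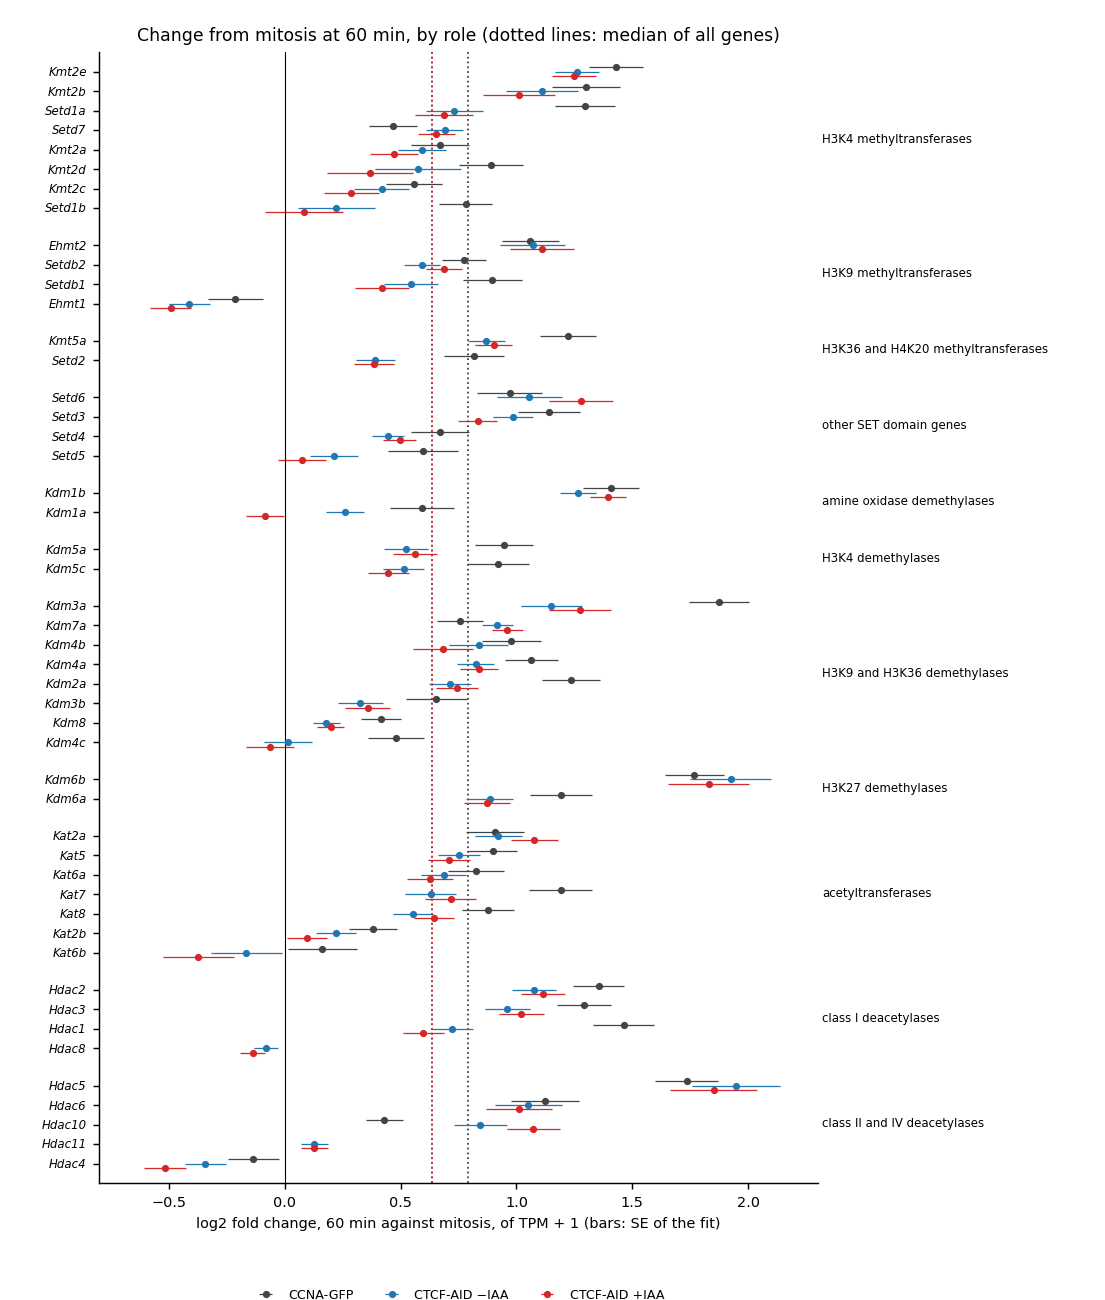
Log2 fold change of TPM + 1 from mitosis to 60 min (x axis) for each member (rows, by role), with points for the fit and bars for its SE in CCNA-GFP (grey), CTCF-AID without IAA (blue) and with IAA (red). Dotted lines mark the medians of all genes (0.79 in CCNA-GFP and 0.63 in both arms of CTCF-AID), and Ehmt1 and Hdac4 lie left of 0 in all 3.

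Some members were lower than in mitosis at a stage from 20 to 120 min. They were 0 of 46 in CCNA-GFP (1.25% of all genes over these stages, and 0.0404%, 0.515% and 0.656% at 40, 60 and 120 min), 6 of 48 in CTCF-AID without IAA (7.39%) and 10 of 48 with IAA (9.11%). These counts depend on the scaling and were 21, 32 and 31 with equal totals, and 3 and 4 in the CTCF-AID arms without the replicate block. The percentages above do not belong to those settings, so the counts under them do not compare the members with all genes. As deposited and with the block, the members lower without IAA were Ehmt1, Hdac4, Kat6b, Kdm4c, Setd1b and Setd2. With IAA the same 6 were joined by Hdac1, Hdac8, Kdm1a and Setd5. At 40 min 2 members were lower without IAA (3.21% of all genes) and 5 with it (3.87%), and at 60 min 2 without IAA (2.7%) and 4 with it (4.04%). Ehmt1 in CTCF-AID without IAA read 3.24, 3.61 and 3.93 TPM in mitosis, 2.31 and 2.63 TPM at 40 min, 2.14 and 2.13 TPM at 50 min, and 2.41 and 2.19 TPM at 60 min, so that from 40 to 60 min every library lay under the lowest mitotic one. At 60 min its log2 fold change was -0.41 ± 0.09 (limma, adjusted p = 0.000189). By 120 min Ehmt1 had come up to 2.94 and 3.19 TPM, still under the lowest mitotic library. Kdm4c, an H3K9 and H3K36 demethylase gene, had its dip earlier, at 2.68 and 2.63 TPM at 40 min after 3.65, 3.44 and 4.09 TPM in mitosis (-0.31 ± 0.10, limma adjusted p = 0.0101). By 60 min Kdm4c was again at 3.53 and 3.63 TPM. The call for Setd2 came at 120 min and for Setd1b at 90 min without IAA, and both calls were lost when replicate 3 was left out (that for Setd2 also without replicate 1 or 2). Without replicate 3 the count in this arm was 3.

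Ehmt1, Hdac4, Kat6b and Kdm4c, the members lower than in mitosis at 40, 50 or 60 min without IAA, are long genes, whereas Setd1b (26.4 kb) and Setd2 (86.0 kb), called later, are shorter. Ehmt1 spans 129.7 kb (chr2:24789928-24919614, minus strand, mm10), Kdm4c 163.4 kb (chr4:74242497-74405860, plus strand), Kat6b 191.0 kb (chr14:21481434-21672478, plus strand) and Hdac4 266.9 kb (chr1:91928779-92195699, minus strand), the longest of all members. Of the 8 members of at least 100 kb in CTCF-AID without IAA, 4 were lower than in mitosis at 40, 50 or 60 min, against 0 of 40 shorter members, where 21.6% of all long and 3.50% of all shorter genes were. With IAA it was 5 of 8 and 2 of 40, the latter Kdm1a (52.2 kb) and Setd5 (76.1 kb), where 27.2% and 4.27% of all genes were, and in CCNA-GFP it was 0 of 7 and 0 of 39 (1.70% and 0.408%). The 100 kb limit was chosen after the values were seen. Not every long member was flat: Kdm6a (117.4 kb) rose in all 3 arms, and Kmt2c (227.0 kb) rose by 0.56 ± 0.12 in CCNA-GFP (limma, adjusted p = 0.000223), though with equal totals Kmt2c was not above mitosis.

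Across members, a greater annotated length went with a smaller rise, most at 40 and 50 min. Spearman's rho between length and log2 fold change was -0.53 at 40 min and -0.36 at 60 min over the 46 members in CCNA-GFP, next to -0.54 and -0.37 over 9885 genes. In CTCF-AID without IAA it was -0.63 and -0.46 over 48 members, next to -0.59 and -0.37 over 10209 genes. In CCNA-GFP the members' rho had come to -0.23 by 120 min, as had that of all genes (-0.23). In CTCF-AID the members' rho stayed further from 0 than that of all genes at the late stages, at -0.46 beside -0.28 at 120 min without IAA and at -0.56 beside -0.35 with it. In asynchronous against mitotic cells rho was 0.13 for the members in CCNA-GFP, -0.22 without IAA and -0.31 with it. These are descriptions over genes of the same libraries, which share depth and mitotic samples, and TPM itself divides by transcript length. What part the unit, the speed of the polymerase or the annotation had in it was not tested.

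**Figure D3:**
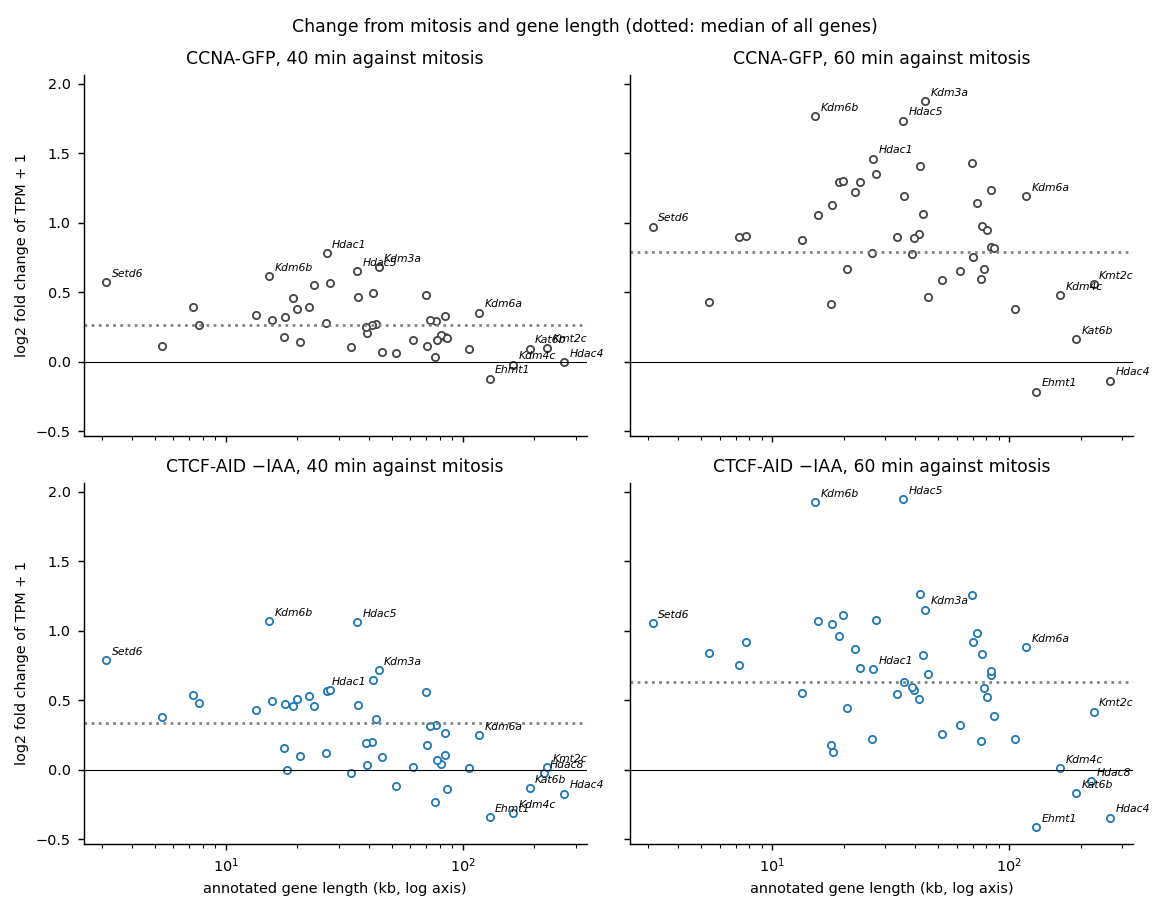
Log2 fold change of TPM + 1 from mitosis (y axis) against annotated gene length in kb (x axis, log scale) for each member at 40 and 60 min, in CCNA-GFP (top) and CTCF-AID without IAA (bottom), with the median of all genes as a dotted line. Short genes such as Setd6 (3.13 kb) lie above 0 at 40 min, and Ehmt1 (129.7 kb) lies below 0 in all 4 panels. At 60 min Kdm6a and Kmt2c lie above the other labelled genes of over 100 kb.

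Paralogs with a shared activity often differed in how they came back. In 13 pairs with both genes listed, the shorter gene had the larger ratio of 60 min to mitosis in 11 pairs in CCNA-GFP, in 11 in CTCF-AID without IAA and in 10 with IAA. Ehmt1 and Ehmt2 stood at 0.799 and 3.02 in CCNA-GFP and at 0.671 and 2.81 in CTCF-AID without IAA. For the amine oxidase demethylases the ratio was 1.65 for Kdm1a and 6.004 for Kdm1b in CCNA-GFP, and for the H3K9 demethylases 4.63 for Kdm3a and 1.80 for Kdm3b. The MOZ-type acetyltransferases Kat6a and Kat6b were at 2.23 and 1.10. Hdac1 and Hdac2, which occupy the same complexes and are of almost the same length (26.6 and 27.3 kb), were at 3.97 and 4.05 in CCNA-GFP, but at 1.84 and 2.79 in CTCF-AID without IAA and at 1.71 and 2.93 with it. The pair Setdb1 and Setdb2, of 33.7 and 38.9 kb, ran against the order, at 2.15 and 3.34. No test was made of the pairs, which share libraries and were chosen by name.

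**Figure D4:**
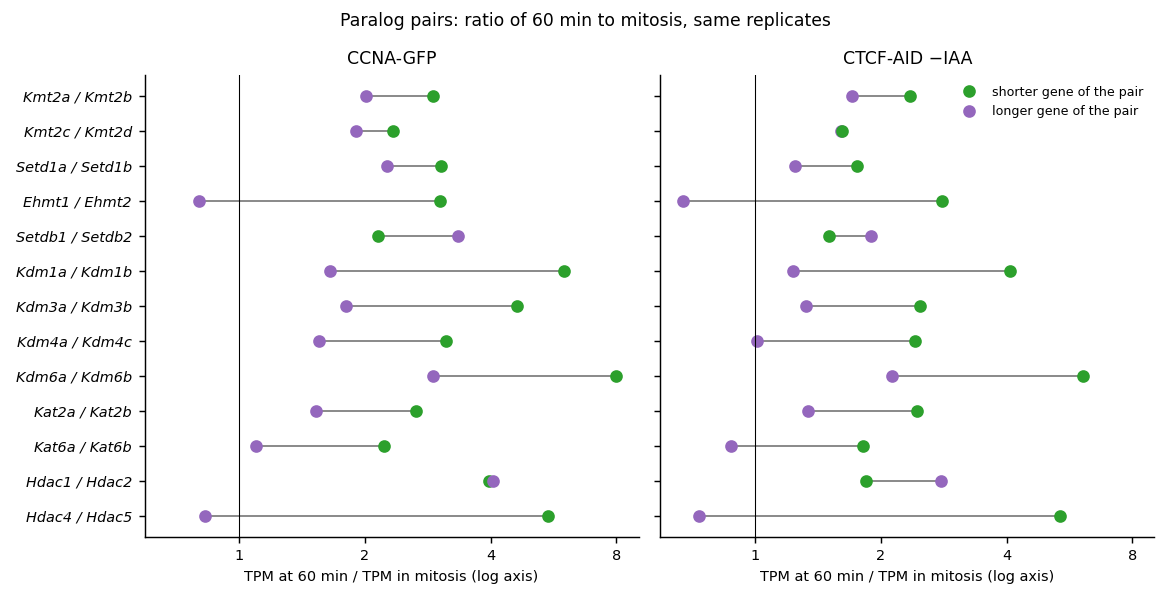
Ratio of TPM at 60 min to TPM in mitosis in the same replicates (x axis, log scale) for 13 paralog pairs (rows), with the shorter gene in green and the longer in purple, in CCNA-GFP (left) and CTCF-AID without IAA (right). In 11 of 13 pairs of each panel the green point lies to the right.

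The stage of the highest mean was found for each member. In CCNA-GFP 16 of 46 had their highest mean by 60 min (45.1% of all genes), 27 had it at 90 min (37.1%) and 2, Ehmt1 and Hdac4, in asynchronous cells (10.4%). Without IAA 37 of 48 CTCF-AID members had it at a stage from 20 to 60 min (68.7%), and 2, Ehmt1 and Kat6b, in mitosis (1.08%). Another 4 had it in asynchronous cells (8.08%), which were Hdac4, Hdac8, Hdac11 and Kat2b. Hdac8 averaged 0.673 TPM there and 0.369 to 0.466 TPM at the stages after release. By stage means it passed the 0.5 TPM filter through asynchronous cells alone, so its place here is not independent of the filter. The mean of asynchronous cells was reached by 60 min in 40 of 46 CCNA-GFP members (72.6% of all genes) and in 24 of 48 CTCF-AID members without IAA (61.3%). In a further 18 of these 48 (26.5% of all genes) the asynchronous mean lay below the mitotic one already, as it did in 0 of 46 in CCNA-GFP (8.35%), so these counts do not compare speed between the lines. With equal totals 9 of 46 and 12 of 48 had reached the asynchronous mean by 60 min, and 9 and 10 were highest in asynchronous cells. The peak count of CCNA-GFP rested on which libraries stood at each stage: it was 6 without replicate 1 and 30 without replicate 2. With equal totals the counts by 60 min were close in both lines, at 15 of 46 in CCNA-GFP and 16 of 48 in CTCF-AID without IAA. Because the 50 min stage of CCNA-GFP was 1 library, its peak times carry no error.

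From 60 to 120 min part of the members came down again. In CCNA-GFP 13 of 46 were lower at 120 min than at 60 min (28.5% of all genes), and in CTCF-AID without IAA 32 of 48 (53.1%), while 1 and 2 were higher (9.6% and 7.31%). Kdm3a fell from 15.9 and 10.7 TPM to 8.11 and 7.35 TPM (-0.69 ± 0.14, limma adjusted p = 0.000701), Hdac1 from 5.94 and 4.99 TPM to 2.60 and 3.28 TPM (-0.71 ± 0.14, limma adjusted p = 0.000697) and Kdm1b from 3.54 and 2.19 TPM to 1.21 and 1.25 TPM (-0.77 ± 0.13, limma adjusted p = 0.000149). Asynchronous cells read 5.22, 4.12 and 7.06 TPM for Kdm3a, 2.26, 2.17 and 3.52 TPM for Hdac1 and 0.638, 0.622 and 1.16 TPM for Kdm1b. At 120 min, in the deposited TPM, Hdac1 thus lay within its asynchronous range, while every library of Kdm3a and Kdm1b was still above it. Library sums were 31693.7 to 31750.7 TPM at 120 min and 20501.4 to 28933.9 TPM in asynchronous cells, so these positions depend on the scaling. Ehmt1 was the 1 member that was higher at 120 than at 60 min in CCNA-GFP, at 3.63 and 3.79 TPM (0.48 ± 0.13, limma adjusted p = 0.00645), and Ehmt1 and Hdac4 were the 2 in CTCF-AID without IAA. Without replicate 1, which was the higher of both libraries at 60 min for these genes, the count of falling members in CCNA-GFP was 1. It was 6 with each library divided by its value step and 4 without the replicate block, and in CTCF-AID without IAA the count was 19 with equal totals.

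At 60 min most members exceeded their asynchronous level in the deposited TPM, but not with equal totals, where 13 of 46 in CCNA-GFP, 18 of 48 without and 16 of 48 with IAA were called higher. The shares of all genes below are for the deposited TPM, so these equal-total counts do not compare the members with all genes. In CCNA-GFP 34 of 46 were higher at 60 min than in asynchronous cells (67% of all genes) and 2 were lower (8.6%), again Ehmt1 (-0.50 ± 0.12, limma adjusted p = 0.000881) and Hdac4 (-0.47 ± 0.11, limma adjusted p = 0.000683). Of the CTCF-AID members without IAA 40 of 48 were higher (75.2%) and 4 lower (7.06%), which were Ehmt1, Hdac4, Hdac8 and Hdac11. For Hdac8 the level filter favours this direction, since by stage means it passed in asynchronous cells only. Without replicate 1 the CCNA-GFP count was 19, and with each library divided by its value step 16.

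Asynchronous cells were also compared with mitotic ones. In CCNA-GFP 35 of 46 members were higher in asynchronous cells (70.4% of all genes) and 0 lower (1.97%), a count of 19 without replicate 3. In CTCF-AID without IAA 12 of 48 were higher (34.3%) and 4 lower (5.25%), the former 7 without replicate 3. This contrast between the lines turned on the scaling: the counts were 38 and 29 with each library divided by its value step, and 10 and 9 with equal totals. For these settings no share of all genes is given, so the counts describe the members alone. As deposited, the members lower without IAA were Setd1a, Setd2, Setd5 and Kdm8, and with IAA these 4 and Kdm1a were lower (5.89%). Setd1a read 2.36, 2.58 and 3.26 TPM in asynchronous and 4.48, 3.64 and 4.27 TPM in mitotic cells of this arm (-0.46 ± 0.11, limma adjusted p = 0.00189), with no overlap. Setd2 read 2.68, 2.50 and 3.30 TPM against 3.65, 3.71 and 4.79 TPM (-0.40 ± 0.08, limma adjusted p = 0.000264), also apart. In CCNA-GFP Setd5 was higher in asynchronous cells (0.34 ± 0.13, limma adjusted p = 0.0257), and the other 3 were not called, with 1.65, 2.23 and 2.67 TPM against 2.23, 1.96 and 2.22 TPM for Setd1a (0.01 ± 0.11, limma adjusted p = 0.929). The lines were deposited as separate tables, so this difference between them was not tested. With each library divided by its value step none of the 4 was called in CTCF-AID and Setd5 stood at 0.01.

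Set side by side, the members kept more of their order between lines early than late. Spearman's rho of the members' log2 fold changes from mitosis between CCNA-GFP and CTCF-AID without IAA was 0.92 at 40 min and 0.82 at 60 min, and 0.55 at 90 min, over 46 members (0.89, 0.86 and 0.68 over 9574 genes). It was 0.56 at 120 min and 0.57 in asynchronous cells (0.67 and 0.65 over all genes). At 60 min 45 of the 46 had the same sign, the exception being Kat6b, and at 120 min and in asynchronous cells 38 and 29 had. Kdm6b, for example, rose in CTCF-AID without IAA from 1.11, 1.12 and 1.48 TPM in mitosis to 5.26 and 8.33 TPM (1.92 ± 0.17, limma adjusted p = 6.49e-10, and 1.22 with equal totals).

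The last question was whether loss of CTCF changed these genes. An IAA effect was called at an adjusted p under 0.1 with an absolute log2 fold change over 0.2. The fit without a replicate block called 0 of 48 members at any stage (1.21% of all genes), 0 in the combined call that asks for asynchronous cells or 2 post-mitotic stages (1.1%), and 0 members whose effect after mitosis differed from that in asynchronous cells (0.0195% of all genes higher and 0% lower). At an unadjusted p under 0.05 limma gave 1 member in asynchronous cells (2.79% of all genes), 1 at 50 min (1.94%) and 1 at 60 min (1.78%). It gave 0 at the other stages, where 0.225% of all genes in mitosis to 2.40% at 90 min passed. Members' effects ran from -0.27 to 0.35 in asynchronous cells and from -0.41 to 0.19 at 60 min, with medians of 0.02 and -0.04. Ctcf pre-mRNA itself was at 5.74 to 10.3 TPM without and 5.98 to 11.8 TPM with IAA, which does not check the depletion, since the degron acts on the protein.

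Equal replicate numbers did pair the arms, and with the replicate as a block 2 members were called, both in the combined call (2.63% of all genes). Kdm1a, the LSD1 gene, was lower with IAA in 18 of 18 pairs of libraries with the same stage and replicate. In asynchronous cells it read 4.80, 3.74 and 5.74 TPM without and 3.82, 3.20 and 4.19 TPM with IAA (-0.27 ± 0.07, limma with block, adjusted p = 0.0505). At 50 min Kdm1a was at 5.79 and 6.68 TPM without and 4.22 and 4.74 TPM with IAA (-0.40 ± 0.09, limma with block, adjusted p = 0.0252). At 60 min the libraries read 6.68 and 5.55 TPM against 4.58 and 4.09 TPM (-0.41 ± 0.09, limma with block, adjusted p = 0.0194). The arms did not overlap at 50 and 60 min, while in mitosis, at 5.18, 4.74 and 6.26 TPM without and 5.05, 4.34 and 5.95 TPM with IAA, they did. Without the block the same differences had an adjusted p of 1 (limma) at these 3 stages. At 60 min Kdm1a was above mitosis without IAA (0.26, called) and not with it (-0.09 and not called), and with equal totals it was not above mitosis in either arm.

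Kdm3b, an H3K9 demethylase gene, was the other member called with the block, and in asynchronous cells only among the stages. It was at 2.21, 2.35 and 2.92 TPM without and 3.19, 3.26 and 3.87 TPM with IAA, higher in 3 of 3 pairs and without overlap (0.35 ± 0.09, limma with block, adjusted p = 0.0282). Over the 6 stages after mitosis its mean effect was 0.08. Behind Kdm1a, whose mean effect over these stages was -0.27, the largest were those of Hdac10 (0.14) and Hdac1 (-0.12), and neither gene was called at any stage. Of 48 members Kdm1a was the single one lower with IAA in 18 of 18 pairs, as were 0.938% of all genes, and Kat2b was lower in 17 (2.72% of all genes in 17 or more). With equal totals Kdm1a was lower in 17 pairs and Kat2b in 14.

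**Figure D5:**
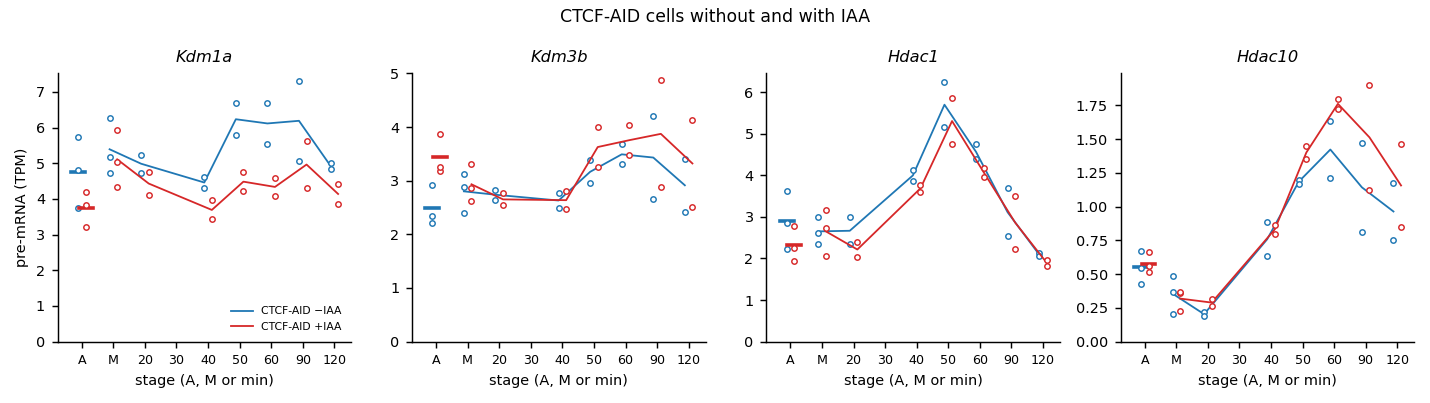
Pre-mRNA level in TPM (y axis, linear) of Kdm1a, Kdm3b, Hdac1 and Hdac10 by stage (x axis: A, asynchronous, M, mitotic, then min after release) in CTCF-AID cells without IAA (blue) and with it (red), with circles for libraries, and lines and bars for means. The red means of Kdm1a lie below the blue ones at every stage, and those of Kdm3b lie above in asynchronous cells.

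To show the sequence at the start of the member with the largest IAA effect, the RefSeq promoter of Kdm1a is printed (GRCm38.p6, chr4:136602674-136602973, minus strand, 300 bases around the start site, in the direction of transcription). It was searched on both strands for the core letters of the CTCF motif, CCNNNAG directly followed by NNGGC (N being any base), and holds no match, so it carries no capitals.
Kdm1a: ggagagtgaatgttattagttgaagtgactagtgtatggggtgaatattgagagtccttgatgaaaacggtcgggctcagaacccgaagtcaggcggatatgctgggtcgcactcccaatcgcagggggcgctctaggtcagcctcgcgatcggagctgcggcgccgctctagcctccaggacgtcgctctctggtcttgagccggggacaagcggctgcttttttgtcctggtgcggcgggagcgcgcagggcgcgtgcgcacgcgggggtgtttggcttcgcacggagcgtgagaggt
No match says only that these letters, taken in full, are not in this window. The later letters of the core, AGNNGGC, are present as agggggc, with at in the place of the leading CC. Looser forms of the motif were not searched, so a partial CTCF motif in this window was not tested.

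Promoters were found for 36 of 48 members (47 windows of 300 bases), and 6 of the 36 held the core letters, 16.7% beside 15.5% of the 8199 listed CTCF-AID genes with a window. They were Setdb1, Hdac11, Kdm8, Setd2, Kat2a and Setd3, none of which had an IAA effect called, with or without the block. The matches are printed in the direction of the motif, with its fixed letters in capitals and coordinates on GRCm38.p6.
Setdb1, chr3:95357436-95357447: CCtacAGgtGGC
Hdac11, chr6:91156648-91156659: CCtccAGgcGGC
Hdac11, chr6:91156834-91156845: CCcgcAGccGGC
Kdm8, chr7:125444385-125444396: CCgtgAGttGGC
Setd2, chr9:110532351-110532362: CCgccAGtcGGC
Kat2a, chr11:100712697-100712708: CCtccAGacGGC
Setd3, chr12:108179223-108179234: CCcccAGgcGGC
These are matches to letters and not binding sites. The members' windows had a median G and C content of 62.7%, close to the 61.3% of all listed CTCF-AID genes, and 25 of 36 members had a window above 60%, as did 61.2% of the listed genes.

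The partners of these enzymes were counted in the same way. At 60 min in CCNA-GFP 24 of 27 other histone methylation and acetylation enzymes, 15 of 15 subunits of the COMPASS H3K4 methyltransferase complexes, 30 of 34 deacetylase complex subunits and 40 of 43 acetyltransferase complex subunits were higher than in mitosis, where 88.3% of all genes were. Their median log2 fold changes were 0.86, 0.87, 1.04 and 0.99, with 0.79 for all genes. In CTCF-AID without IAA 22 of 27, 13 of 15, 29 of 34 and 36 of 42 were higher, where 84.8% of all genes were. A few were lower there at 60 min, as were 276 of all 10237 genes. They were Ncor1, the scaffold of the HDAC3 complex (-0.53 ± 0.12, limma adjusted p = 0.000322), Mta1, a NuRD subunit (-0.36 ± 0.09, limma adjusted p = 0.000764), the H3K36 methyltransferase gene Nsd1 (-0.28 ± 0.11, limma adjusted p = 0.0268), and the acetyltransferase subunits Brpf3 and Ing4. These counts of partners are for the deposited TPM and, like those of the members, depend on that scaling. Of the 118 listed genes of the 4 lists 0 had an IAA effect called at any stage in the limma fit without a block (1.21% of all genes). At an unadjusted p under 0.05 there were 6 at 1 stage or more, a count with no share of all genes beside it. Stage by stage 0 to 3 of the 118 passed that threshold, where 0.225% to 2.79% of all genes did. With the block 1 had an effect called at any stage (3.09% of all genes), the acetyltransferase complex gene Zzz3. Zzz3 was lower with IAA in asynchronous cells (-0.30 ± 0.08, limma with block, adjusted p = 0.0673).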

How the data were processed

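Pre-mRNA was measured by ribo-depleted, stranded, paired-end RNA-seq in 55 libraries of 2 lines. Per the methods of the study, the authors mapped the reads with STAR (mm10) and estimated abundances with RSEM, using Gencode vM12 plus an unspliced isoform of each gene. They deposited the TPM of that isoform for RefSeq curated genes that passed a level filter of 0.5 TPM. A gene passed by its mean in asynchronous cells, or else by 2 or more samples taken after release. STAR, RSEM and mm10 are named without versions in the submitters' processing notes. Within a library, values advance in equal steps of 0.01 TPM multiplied by 1.84 to 3.81, a scaling that is not given in the sources used here, and library sums differ, so a rise common to most genes depends on that scaling. TPM hold no counts, so the depth is unknown and errors come from replicates alone. Ehmt1, Hdac4, Hdac5, Kat6a, Kdm1a, Kmt2a, Kmt2c, Setd1a, Setd2, Setd7 and Setdb2 overlap another annotated gene on their own strand.

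Libraries were assigned to stage, arm and replicate by column header, with no column left unused. Spearman's rho between replicates was 0.918 to 0.984, and none was a copy of another. Fits used limma 3.58.1 in R 4.3.3 (lmFit, eBayes with trend) on log2(TPM + 1), one fit per line over all its groups, adjusted by Benjamini-Hochberg over all genes of the table, and were tested on simulated data. Fold changes, and ranks of members within a role, are on that scale, which understates changes of low genes. Stage fits carried the replicate as a block, and the IAA fit did not. Deviations of equally numbered libraries from their group means correlated above 0.1 in 20 of 20 comparisons of CCNA-GFP stages (median r 0.54), in 39 of 40 within a CTCF-AID arm (r = 0.05 for mitotic and 120 min cells with IAA) and in 8 of 8 between arms at the same stage (median r 0.81), so the numbers pair the libraries between arms. Ratios of 60 min to mitosis used the same replicates. Genes were located on Gencode vM21 (mm10), and promoters came from RefSeq (GRCm38.p6). Values are given for the highest and lowest member of each role at 60 min in CCNA-GFP, members not called there, called lower than mitosis or called for IAA, the 5 highest in asynchronous cells and paralogs. Setd1a and the genes named for the fall from 60 to 120 min were added after their values were seen. Members, lists and tests were chosen with earlier results of these data known. Alternatives were a pseudocount of 0.1, a mean of at least 1 TPM, equal library totals, division by the step, the other choice of block, and leaving out each replicate. One gene of the name pattern is not reported here.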

Additional observations from a re-analysis of the deposited data

How the results depend on the processing

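Counts of members under a pseudocount of 0.1 and a mean of at least 1 TPM (41 and 44 members left) stayed within 1.5 times those reported. In this section the counts of calls between stages are of members only, with no share of all genes beside them. Scaling all libraries to the same total changed the most. Members called higher than in mitosis then numbered 7 at 40 min, 15 at 60 min, 8 at 120 min and 10 in asynchronous cells in CCNA-GFP, 6, 17 and 11 at 40, 60 and 120 min without IAA, and 8, 15 and 11 with IAA. Members lower than mitosis at any stage numbered 21, 32 and 31, and members higher at 60 min than in asynchronous cells 13, 18 and 16, in CCNA-GFP, without and with IAA. Members that fell from 60 to 120 min numbered 19 without and 18 with IAA. Highest in asynchronous cells were 9, 10 and 7, at the asynchronous mean by 60 min 9, 12 and 13, and at their maximum by 60 min 16 and 16 in both CTCF-AID arms. An IAA effect was called for 1 member, Kdm1a, at any stage and in the combined call, with no share of all genes beside it. At 60 min in CCNA-GFP 24 of 46 members were above mitosis with equal totals, against 44 as deposited. It turned Kat6b to -1.065, Kdm1a to -0.55, Kdm5a to -0.11, Kdm5c to -0.12, Kdm8 to -0.18, Setd2 to -0.23, Setd5 to -0.62 and Setd7 to -0.0099, and Kat2b, Kat6a, Kat8, Kdm3b, Kdm4c, Kmt2a, Kmt2c, Kmt2d, Setd1b, Setd4, Setd6 and Setdb1 were not above mitosis either. Division by the step gave 16 members higher at 60 min than in asynchronous cells and 6 lower at 120 than at 60 min in CCNA-GFP, and 29 and 30 higher in asynchronous than in mitotic cells without and with IAA, with Setd5 at 0.007 without IAA.

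Without the replicate block, members higher numbered 4 at 40 min and 22 in asynchronous cells in CCNA-GFP, without IAA 14 at 40 min, 12 at 120 min and 5 in asynchronous cells, and with IAA 12 at 40 min and 6 in asynchronous cells. Members lower at 120 than at 60 min numbered 4 in CCNA-GFP and 18 with IAA, members lower than mitosis at any stage 3 without and 4 with IAA, and Kat6b stood at -0.0662 at 60 min in CCNA-GFP. The replicate block moved the IAA calls from 0 to 2 members at any stage and in the combined call, and the call on the difference between stages stayed at 0.

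Leaving out each replicate gave 10 to 14 members higher at 40 min, 19 to 36 in asynchronous cells, 19 to 39 at 60 min against asynchronous cells and 1 to 17 lower at 120 than at 60 min in CCNA-GFP, with 6 to 30 at their maximum by 60 min and 1 to 4 highest in asynchronous cells. Without IAA it gave 14 to 30 higher at 120 min, 7 to 11 in asynchronous cells and 3 to 7 lower than mitosis at any stage, and with IAA 13 to 34 at 120 min and 9 to 20 in asynchronous cells. At 120 min with IAA, Setd1b ran from -0.7756 to 0.0008 and Setd2 from -0.4033 to 0.0014, the upper values without replicate 1. The cause of these shifts was not tested. A single 50 min library and 2 libraries at most other stages limit the precision, and depth is unknown.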
